A study of Mus musculus with 2 samples.

Results

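The excitatory postsynapse was examined through 35 genes for scaffold proteins, the kinase CaMKII and auxiliary proteins of glutamate receptors. They were chosen by name, by a rule that uses no measured value, although earlier results of these data were known at the time. All 35 were found by Ensembl identifier among the 43346 mouse gene rows of the deposited tables. The tissue was hindbrain of healthy newborn mice (postnatal day 0) of strain B6NTac;B6NCrl/Lap, with males and females pooled. Total RNA longer than 200 nt was depleted of ribosomal RNA and sequenced as stranded paired reads, with added spike-in RNA. There were 2 libraries, replicates 1 and 2, and they formed 1 group with no treatment, mutant or second tissue to compare. The labels call the libraries independent isolates but name a single donor for both, and nothing shows that they came from separate animals, so part of the spread may be technical. Replicate 1 came from 15 mice, and the size of the pool behind replicate 2 is not given in the sources used here.

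At an excitatory synapse, glutamate receptors are held opposite the release site by a dense layer of proteins, the postsynaptic density. Scaffolds of the Dlg family bind receptors and their partners, Dlgap proteins bind the Dlg scaffolds, Shank proteins bind Dlgap proteins, and Homer proteins link Shanks to metabotropic receptors and calcium stores. CaMKII is the calcium-activated kinase of this layer and assembles from subunits encoded by a family of related genes. TARPs, cornichons and Neto proteins are auxiliary subunits that ride with AMPA or kainate receptors and change their trafficking and gating, while neuronal pentraxins cluster AMPA receptors from outside the cell. Bulk tissue mixes many cell types, so fewer cells of a type and less RNA per cell cannot be told apart.

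The libraries held 54313140 (replicate 1) and 77142270 (replicate 2) expected counts, which are read pairs assigned to genes and divided among transcripts where they fit several. The postsynaptic genes held 205689 and 290694 of them, or 0.384% and 0.381% of the counts on mouse genes. Single genes had between 828 and 33294 counts in a library. All 5 neuron markers and all 7 hindbrain markers reached 1 TPM (a level per transcript length, scaled to a fixed total) in both libraries, against 1 of 5 forebrain markers. So did 5 of 5 markers of astrocytes and radial glia, 5 of 5 of the oligodendrocyte lineage, 3 of 5 of microglia, 4 of 4 of endothelium and 3 of 3 of mural cells. Skeletal muscle markers moved with the library: the summed level of 6 genes was 50.1 TPM in replicate 1 and 5.24 TPM in replicate 2, with Cacng6 at 0 counts in both.

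All 35 postsynaptic genes reached 1 TPM in both libraries, where 54.6% of 21461 protein-coding genes did. Their median level was 12.005 TPM (log2 level 3.60), beside 2.07 TPM (log2 level 1.12) over all protein-coding genes. At or above the 90th percentile of protein-coding genes in both libraries were 12 of the 35. Every one of the 35 had a higher TPM in replicate 1. TPM sums to a fixed total in each library, and protein-coding genes together took 28.1% of it in replicate 1 and 19.3% in replicate 2. The median over genes of the TPM ratio of replicate 1 to replicate 2 was 1.498 for the postsynaptic genes, beside 1.43 for protein-coding genes that averaged 10 counts or more. Levels are therefore compared below within each library, as ratios or as shares of a family, and libraries are compared by scaled counts. Where 2 values are given for a gene, the first is replicate 1 and the second replicate 2.

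**Figure D1:**
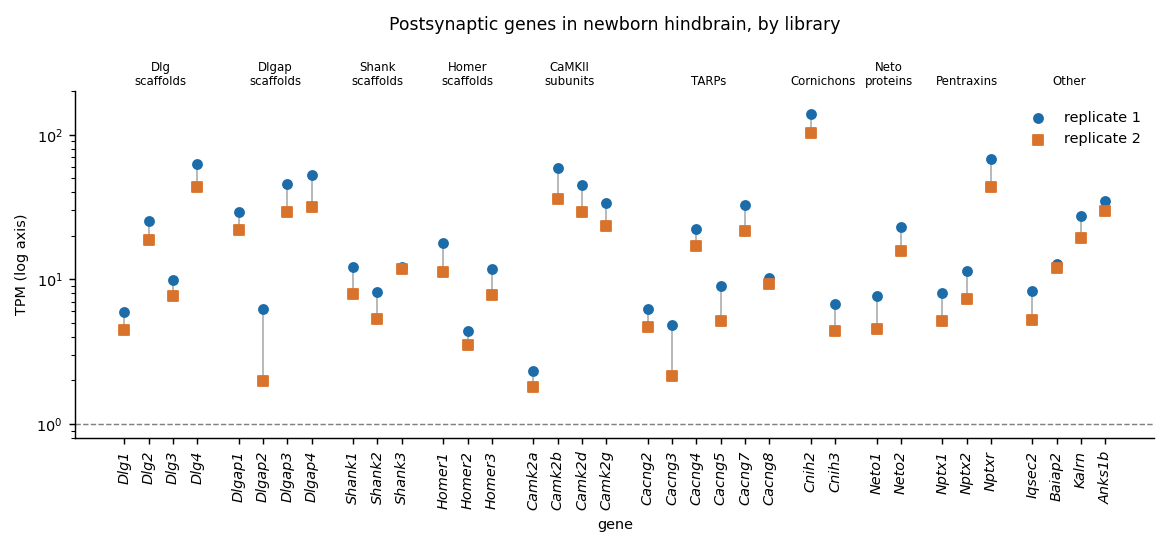
Level of each of the 35 genes in TPM (log axis) in replicate 1 (circles) and replicate 2 (squares), grouped by family, with the dashed line at 1 TPM. Cnih2 lies highest at 138.5 and 103.04 TPM, Camk2a lowest at 2.33 and 1.79 TPM, and each gene lies higher in replicate 1.

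Ordered by mean TPM, the cornichon gene Cnih2 came first, followed by Nptxr, Dlg4, Camk2b, Dlgap4, Dlgap3 and Camk2d. Homer2, Cacng3 and Camk2a closed the order, and the place of Homer2 depends on its transcript length, as given below. Neighbours in this order were said to differ beyond the spread where both libraries gave the same direction and the mean log2 ratio was larger than the difference between the libraries. By that rule 10 of the 34 neighbouring pairs differed, among them Cnih2 over Nptxr and Neto2 over Homer1. Nptxr and Dlg4 did not, nor did Dlgap3 and Camk2d or, at the end of the order, Cacng3 and Camk2a. With 2 libraries, an exact sign-flip test (two-sided) cannot go below p = 0.5, and no p is given for these ratios.

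Of the Dlg genes, which encode membrane-associated guanylate kinase scaffolds, Dlg4 was highest. Dlg4, which encodes PSD-95 (chr11:70016942-70047522 in build mm10, plus strand), stood at 62.4 TPM in replicate 1 and 43.4 TPM in replicate 2. Dlg2, which encodes PSD-93, stood at 25.4 and 18.8 TPM. Dlg3, which encodes SAP102, stood at 9.85 and 7.64 TPM. SAP102 is known as an early member of the family in developing hippocampus and cortex. Dlg1, which encodes SAP97, was lowest at 5.97 and 4.48 TPM. Within a library, Dlg4 was 6.28-fold (replicate 1) and 5.62-fold (replicate 2) above Dlg3. It was 2.45-fold and 2.30-fold above Dlg2, and 10.3-fold and 9.50-fold above Dlg1. All 3 differences were larger than the spread between libraries. Over transcripts with a complete coding sequence the gap to Dlg2 was wider, with Dlg4 at 54.1 and 37.7 TPM and Dlg2 at 10.9 and 7.96 TPM. Dlg4 made up 59.3% ± 1.30 (SD, n = 2) of the summed TPM of the 4 genes.

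The Dlg scaffolds share a pair of alternative exons ahead of the guanylate kinase domain, and these separated Dlg1, Dlg2 and Dlg3. In the annotated coding transcripts of each gene, 1 exon of 100 nt stands in the place of a shorter exon of 34 or 46 nt, and no transcript that spans the place holds both. Inclusion below is the TPM of transcripts with the exon as a percentage of the TPM of all transcripts with a complete coding sequence that span it. The sequences are shown because the same exon position gave a different result in each paralog, and the exons printed were chosen after their values were seen. Each is read from GENCODE M21 on mm10, 5′ to 3′ on the plus strand, with the exon in capitals and 15 bases of each spliced neighbour in lower case. The positions are those of the exon: chr16:31846834-31846933 and chr16:31847636-31847669 for Dlg1, chr7:92417224-92417323 and chr7:92418088-92418133 for Dlg2, and chrX:100808053-100808152 and chrX:100809862-100809907 for Dlg3.
Dlg1, 100 nt: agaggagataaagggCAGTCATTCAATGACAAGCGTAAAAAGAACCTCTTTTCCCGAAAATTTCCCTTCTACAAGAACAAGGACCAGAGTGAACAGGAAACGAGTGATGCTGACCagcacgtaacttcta
Dlg2, 100 nt: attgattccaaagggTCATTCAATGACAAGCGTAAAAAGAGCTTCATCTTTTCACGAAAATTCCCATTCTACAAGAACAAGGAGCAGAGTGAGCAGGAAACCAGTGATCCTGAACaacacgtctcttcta
Dlg3, 100 nt: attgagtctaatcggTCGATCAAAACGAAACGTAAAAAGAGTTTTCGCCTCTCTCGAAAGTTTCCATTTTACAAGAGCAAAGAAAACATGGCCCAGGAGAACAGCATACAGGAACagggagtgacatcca
Dlg1, 34 nt: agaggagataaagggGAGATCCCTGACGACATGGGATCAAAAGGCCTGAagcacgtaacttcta
Dlg2, 46 nt: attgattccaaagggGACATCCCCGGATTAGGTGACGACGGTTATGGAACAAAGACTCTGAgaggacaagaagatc
Dlg3, 46 nt: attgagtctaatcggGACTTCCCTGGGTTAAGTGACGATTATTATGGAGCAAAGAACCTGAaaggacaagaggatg

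In a global alignment (match 1, mismatch -1, gap -2), the 100-nt exons of Dlg1 and Dlg2 were identical at 85.4% of aligned positions. Those of Dlg2 and Dlg3 were identical at 68.6%, and those of Dlg1 and Dlg3 at 64.2%. The 46-nt exons of Dlg2 and Dlg3 matched at 36 of 46. Inclusion of the 100-nt exon was 39.5% in replicate 1 and 36.3% in replicate 2 for Dlg2. For Dlg1 it was 30.6% and 21.2%. For Dlg3 it was 0.228% and 1.16%, on 4.84 and 44.5 expected counts. Both libraries therefore put Dlg2 above Dlg1 and Dlg1 far above Dlg3, where the shorter exon held 99.8% and 98.8%. The Dlg2 value rests mainly on Dlg2-202 against Dlg2-204. Their lengths were 4007 and 5246 nt in the release behind the deposited tables but 2329 and 7490 nt in M21. The place of Dlg2 above Dlg1 thus depends on exon structures that may differ from those used for counting. In Dlg4, whose coding transcripts offered no such choice, the transcript Dlg4-201 held 84.9% and 84.5% of the gene's TPM.

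Dlgap genes encode the GKAP (SAPAP) proteins that join PSD-95 to Shank. Dlgap4 stood at 52.9 and 31.9 TPM in replicates 1 and 2, and Dlgap3 stood at 45.6 and 29.4 TPM. Dlgap4 was thus 1.16-fold and 1.08-fold above Dlgap3 over all transcripts, a small difference that lay beyond the spread. It reversed over transcripts with a complete coding sequence, where Dlgap4 stood at 33.9 and 21.9 TPM and Dlgap3 at 45.6 and 29.4 TPM. Dlgap1 followed at 29.03 and 21.96 TPM. Dlgap2, the lowest of the 4, was at 6.25 TPM in replicate 1 and 1.97 TPM in replicate 2, the widest gap between libraries of all 35 genes. Dlgap1 was 4.59-fold above Dlgap2 in replicate 1 and 10.7-fold in replicate 2.

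Shank genes encode the large scaffolds of the deeper layer of the density, and their levels were close to each other. Shank1 stood at 12.1 and 7.91 TPM, and Shank2 stood at 8.14 and 5.32 TPM. Shank3 stood at 12.2 TPM in replicate 1 and 11.8 TPM in replicate 2. Shank3 and Shank1 were level in replicate 1 and apart in replicate 2, so their order was not beyond the spread. Shank2 was the lowest in both libraries. Shank1 lay above it by 1.48-fold in both, and Shank3 by 1.49-fold and 2.20-fold. Over transcripts with a complete coding sequence Shank3 stood at 8.68 and 7.33 TPM and Shank2 at 8.10 and 5.22 TPM, and the pair no longer differed beyond the spread.

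Homer proteins bind Shanks and group 1 metabotropic glutamate receptors through an N-terminal domain. Homer1 was highest at 17.9 and 11.2 TPM, Homer3 followed at 11.8 and 7.76 TPM, and Homer2 was lowest at 4.36 and 3.52 TPM. Homer1 was 4.03-fold and 3.12-fold above Homer2, and Homer3 was 2.67-fold and 2.17-fold above it, both beyond the spread. By counts Homer2 was not the lowest, with 3814 and 6224 beside 3926 and 5305 for Homer1 and 1333 and 2236 for Homer3. Its main transcript, Homer2-201, was 10999 nt long in the release behind the deposited tables but 1736 nt in M21. Both TPM gaps to Homer2 thus depend on a length that differs between releases. Exons of Homer3 overlap the opposite-strand gene Ddx49 (1484 and 2890 counts), and the use of strand in counting is not given in the sources used here, so the Homer3 level is uncertain.

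Homer1 is known for long forms, whose coiled coil lets them form tetramers that link partners, and for short forms that lack it, of which Homer1a is induced by activity. Transcripts with a coding sequence under 700 nt held 53.7% of Homer1 TPM in replicate 1 and 47.4% in replicate 2, on 1998 and 2517 expected counts. Those of 700 nt or more held 46.3% and 52.6%. The mean short share was 50.5% ± 4.42 (SD, n = 2), and which class was larger differed between the libraries. The leading transcript differed as well. Homer1-207, a short form with 579 nt of coding sequence, led in replicate 1 at 43.2% and held 25.2% in replicate 2, where Homer1-203, a long form of 1098 nt, led at 29.3%. Homer1-204, whose 558 nt of coding sequence has the size of Homer1a, held 6.33% and 9.77%. Among long forms, a 36-nt exon (chr13:93386345-93386380, plus strand) was included at 54.8% and 55.8%, close to even in both libraries. Its sequence is shown as the only optional coding exon with substantial use on both sides in the long Homer1 transcripts.
Homer1, 36 nt: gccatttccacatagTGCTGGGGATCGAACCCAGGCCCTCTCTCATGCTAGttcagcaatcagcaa

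The CaMKII genes differed widely among themselves, with the alpha subunit far below the others. Camk2b stood at 59.05 TPM in replicate 1 and 35.97 TPM in replicate 2. Camk2d stood at 44.8 and 29.4 TPM, and Camk2g at 33.5 and 23.5 TPM. Camk2a, the alpha subunit that is the abundant form of adult forebrain, was at 2.33 and 1.79 TPM on 854 and 1300 counts. It was the lowest of all 35 genes. Camk2b was 24.3-fold and 19.1-fold above it, Camk2d 18.5-fold and 15.6-fold, and Camk2g 13.8-fold and 12.5-fold. Each of these differences was beyond the spread. Over transcripts with a complete coding sequence Camk2d was lower, at 25.4 and 19.1 TPM, beside 2.33 and 1.73 TPM for Camk2a. Camk2g kept 33.5 and 23.5 TPM there, so the order of Camk2d and Camk2g reversed in both libraries. Over all transcripts, Camk2a made up 1.82% ± 0.216 (SD, n = 2) of the family's TPM and Camk2b 41.0% ± 1.86. Camk2d made up 32.2% ± 0.262 and Camk2g 25.0% ± 1.38. Camk2d and Camk2g are also expressed in muscle, and the muscle markers Acta1, Ckm and Ttn were higher in replicate 1. For Camk2d and Camk2g, the log2 ratios of scaled counts, replicate 2 over replicate 1, were 0.10 and 0.00.

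CaMKII subunits differ in the linker between the regulatory and hub domains, which is built from optional exons. A short insert in this linker is known to carry a nuclear localization signal in some alpha, delta and gamma isoforms. A 33-nt optional coding exon was annotated in each of the 4 genes. Inclusion was 10.7% and 11.6% in Camk2a, 1.02% and 0.731% in Camk2d, and 21.7% and 22.6% in Camk2g. Expected counts with the exon were few in Camk2a (60.7 and 97.6) and Camk2d (50.6 and 56.6), beside 2019 and 2991 in Camk2g. The Camk2d value rests on Camk2d-205, of 2669 nt in the release behind the deposited tables and 3059 nt in M21. The 33-nt exon of Camk2b (chr11:5989936-5989968, minus strand) lies upstream of that gene's other optional coding exons and is not the counterpart of the insert. It was included at 0% in both libraries, a value that does not bear on an insert in the Camk2b linker. The 2 libraries thus placed Camk2g above Camk2a and Camk2a above Camk2d. The exons of Camk2d and Camk2g matched at 26 of 33 positions, while the 33-nt exon of Camk2b matched that of Camk2d at 16 of 34 aligned positions. Camk2a lies on a chromosome whose sequence is not shown here. The Camk2d and Camk2g exons are shown with the optional exons that follow them in the linker. The Camk2d exons are at chr3:126802937-126802969, chr3:126805857-126805916 and chr3:126808208-126808249 (plus strand). The Camk2g exons are at chr14:20747819-20747851 and chr14:20745792-20745860 and the 45-nt exon of Camk2b is at chr11:5981070-5981114 (minus strand). Exons are in capitals and spliced neighbours in lower case, as for the Dlg genes.
Camk2d, 33 nt: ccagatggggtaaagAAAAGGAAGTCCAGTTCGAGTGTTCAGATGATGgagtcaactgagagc
Camk2g, 33 nt: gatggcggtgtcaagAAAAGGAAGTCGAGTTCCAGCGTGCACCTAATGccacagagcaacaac
Camk2d, 60 nt: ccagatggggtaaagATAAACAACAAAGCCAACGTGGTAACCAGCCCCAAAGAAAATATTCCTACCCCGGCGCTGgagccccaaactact
Camk2g, 69 nt: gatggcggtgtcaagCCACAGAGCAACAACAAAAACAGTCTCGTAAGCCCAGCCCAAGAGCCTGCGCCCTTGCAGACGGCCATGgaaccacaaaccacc
Camk2d, 42 nt: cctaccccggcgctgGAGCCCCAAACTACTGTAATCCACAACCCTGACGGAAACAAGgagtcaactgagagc
Camk2b, 45 nt: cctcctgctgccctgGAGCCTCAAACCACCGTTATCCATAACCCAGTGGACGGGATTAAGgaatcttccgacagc

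The 60-nt exon of Camk2d was included at 49.4% in replicate 1 and 58.2% in replicate 2. The exon after the 33-nt exon of Camk2g, of 69 nt, was included at 66.7% and 63.9%. The next exon of Camk2d, of 42 nt, was included at 96.1% and 91.5% of the TPM of spanning complete coding transcripts, which held 56.8% and 65.1% of the gene's TPM. The 45-nt exon of Camk2b, which matched the 42-nt exon at 34 of 45 aligned positions, was included at 54.4% and 59.9%. The 45-nt and 42-nt exons thus differed in use by more than the libraries did, as did the 33-nt exons of Camk2d and Camk2g. Camk2b-209 (1626 nt of coding sequence) led with 42.1% and 42.9% of Camk2b TPM, with Camk2b-201 (1509 nt) at 41.3% and 33.7%. Camk2d-206 led Camk2d with 28.1% and 37.8%, Camk2g-202 led Camk2g with 44.95% and 41.3%, and Camk2a-203 led Camk2a with 89.2% and 85.7%.

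**Figure D2:**
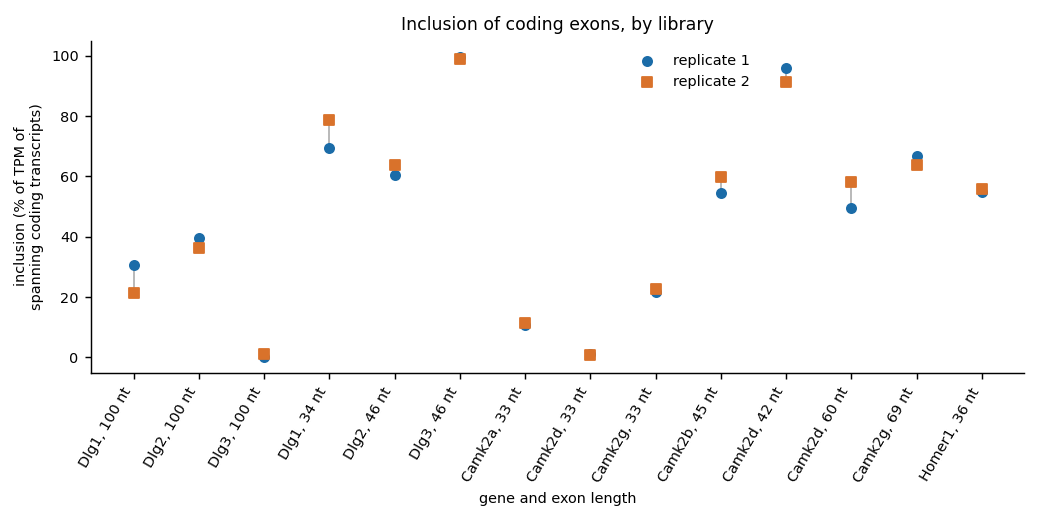
Inclusion of optional coding exons, as a percentage of the TPM of spanning transcripts with a complete coding sequence, in replicate 1 (circles) and replicate 2 (squares); labels give gene and exon length. The 100-nt exon runs from 39.5% and 36.3% in Dlg2 to 0.228% and 1.16% in Dlg3, and the 33-nt exon from 21.7% and 22.6% in Camk2g to 1.02% and 0.731% in Camk2d.

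TARPs are transmembrane auxiliary subunits of AMPA receptors, and the 6 measured here include both classes. Cacng7, a type II TARP, was highest at 32.5 and 21.7 TPM. Cacng4 (γ-4), a type I TARP known for early expression in brain, followed at 22.3 and 16.9 TPM. Cacng8 (γ-8), best known from hippocampus, stood at 10.2 and 9.32 TPM. Cacng5 (γ-5), the other type II TARP, stood at 9.06 and 5.15 TPM. Cacng2 encodes stargazin, which is known for bringing AMPA receptors to the surface of cerebellar granule cells, and stood at 6.27 and 4.66 TPM. Cacng3 (γ-3) was lowest at 4.82 and 2.16 TPM. Cacng7 was 3.56-fold and 4.15-fold above Cacng5, Cacng4 was 2.17-fold and 1.81-fold above Cacng8, and Cacng2 was 1.29-fold and 2.11-fold above Cacng3. All 3 pairs differed beyond the spread, with the Cacng2 and Cacng3 pair the least even between libraries. Cacng7 and Cacng4 together led the family, with 37.2% ± 1.40 and 27.2% ± 1.48 (SD, n = 2) of its TPM.

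Cornichon proteins bind AMPA receptors and slow their closing. Cnih2 (chr19:5092868-5098521, minus strand) was the highest of the 35 genes at 138.5 and 103.04 TPM, at percentiles 98.8 and 99.0 of protein-coding genes. Cnih3 stood at 6.80 and 4.40 TPM. Cnih2 was 20.1-fold and 22.9-fold above Cnih3 and made up 95.6% ± 0.413 (SD, n = 2) of the pair's TPM. Exons of Cnih2 overlap the opposite-strand gene Yif1a, which had 1163 and 2020 counts beside 10472 and 16030 for Cnih2. Neto proteins are auxiliary subunits of kainate receptors. Neto2 stood at 23.05 and 15.8 TPM and Neto1 at 7.73 and 4.50 TPM, so that Neto2 was 2.96-fold and 3.45-fold higher, beyond the spread. The only Neto1 transcript was 3531 nt long in the release behind the deposited tables but 8352 nt in M21. The size of this gap may therefore depend on the release.

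Neuronal pentraxins are secreted or membrane-bound proteins that gather AMPA receptors from the outside. Nptxr, the membrane-bound receptor of the family, was second of the 35 genes at 68.2 and 43.3 TPM. It held the most counts, 25887 and 33294. Nptx2 stood at 11.4 and 7.34 TPM and Nptx1 at 8.08 and 5.17 TPM. Nptxr was 8.35-fold and 8.24-fold above Nptx1, and Nptx2 was 1.40-fold and 1.41-fold above Nptx1. These 2 ratios were among the steadiest between libraries. Nptxr shares exons on the same strand with the gene Npcd (102 and 319 counts), and it was the 1 member whose count was not whole.

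Of the remaining genes, Anks1b (AIDA-1, a protein that binds PSD-95) stood at 34.8 and 29.8 TPM. Kalrn, which encodes an exchange factor of dendritic spines, stood at 27.3 and 19.4 TPM. Baiap2 (IRSp53), which links PSD-95 and Shank to actin, stood at 12.8 and 11.96 TPM. Iqsec2, an exchange factor for Arf6 at the postsynaptic density, stood at 8.36 and 5.24 TPM. The Baiap2 level in replicate 1 is the least certain of the 35, since the upper bound of its deposited interval was 1.84 times the lower one. For the library comparison below, Baiap2 had 3034 and 5868 counts.

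**Figure D3:**
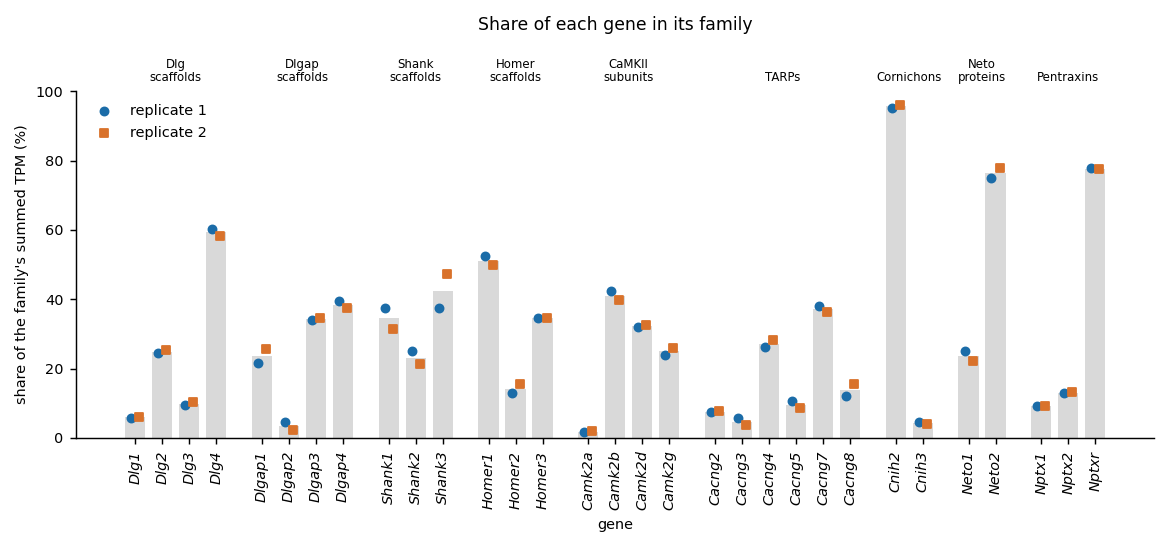
Share of each gene in the summed TPM of its family (%), with bars at the mean of the libraries and points for replicate 1 (circles) and replicate 2 (squares). Dlg4 holds 60.2% and 58.4% of the Dlg family, Camk2a 1.67% and 1.97% of the CaMKII family, and Cnih2 95.3% and 95.9% of the cornichon pair.

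All 19 family pairs compared in this way lay beyond the spread between libraries. They were a chosen set and not every pair within a family, so this count does not describe the families throughout. Shank3 and Shank1, a pair outside the set, did not differ beyond the spread, with log2 ratios of 0.005 and 0.576. Shank3 took 37.5% of its family in replicate 1 and 47.2% in replicate 2. Nptxr kept 77.8% and 77.6% of the pentraxins.

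Between libraries, counts scaled by TMM (a factor per library that centres most genes on no change) gave a median log2 ratio of replicate 2 to replicate 1 of -0.04 over the 35 genes, beside 0.00 over the 15314 protein-coding genes that averaged 10 counts or more. Ratios were above 0 for 16 genes and below 0 for 19. Scaling by spike-in totals moved all genes up by the same 0.10, which put the median of the 35 genes at 0.06 and that of protein-coding genes at 0.10, with 25 of the 35 above 0. The closest to 0 under TMM were Camk2g (0.00), Dlg4 (-0.01) and Neto2 (-0.04). No postsynaptic gene was 1.5-fold or more higher in replicate 2, where 11.1% of those protein-coding genes were, and 1 was lower by that much, where 7.85% were. That background includes genes with few counts, while each of the 35 had at least 828 in a library. Among 12366 protein-coding genes that averaged 200 counts or more, 7.88% passed 1.5-fold between libraries. Within 0.32 log2 units of 0 were 31 of the 35 (88.6%), beside 76.3% of protein-coding genes that averaged 200 counts or more.

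The gene past 1.5-fold was Dlgap2 (chr8:14095865-14847680, plus strand). It had 1241 counts in replicate 1 and 1050 in the deeper replicate 2, a log2 ratio of -0.75 under TMM and of -0.65 with spike-in totals. Its counts on transcripts with a complete coding sequence went the other way, from 414 to 672, a log2 ratio of 0.19. The counts on its other transcripts were 827 in replicate 1 and 378 in replicate 2. The gap between libraries therefore lay in transcripts annotated without a complete coding sequence. Dlgap2-207, a retained intron form, went from 571 to 349 counts but kept a steady lead with 42.4% and 40.4% of the gene's TPM. The processed transcripts Dlgap2-202 (187 to 25.9 counts) and Dlgap2-206 (69 to 3 counts) fell more steeply. The muscle genes Acta1, Ckm and Ttn were also lower in replicate 2 (log2 ratios of -2.65, -2.95 and -2.13), and their part in the Dlgap2 ratio was not tested.

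The other genes more than 0.32 log2 units from 0, named after their values were seen, were Cacng8, Baiap2 and Cacng3. Cacng8 had 932 counts in replicate 1 and 1822 in replicate 2, a log2 ratio of 0.46. The log2 ratio of Baiap2 was 0.44. That of Cacng3 was -0.43, on 828 and 874 counts. These 3 kept their direction under each of the 4 scalings and over transcripts with a complete coding sequence. Dlgap1 and Kalrn moved between these measures, with log2 ratios of -0.05 and 0.04 over all transcripts and of -0.25 each over complete coding ones.

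**Figure D4:**
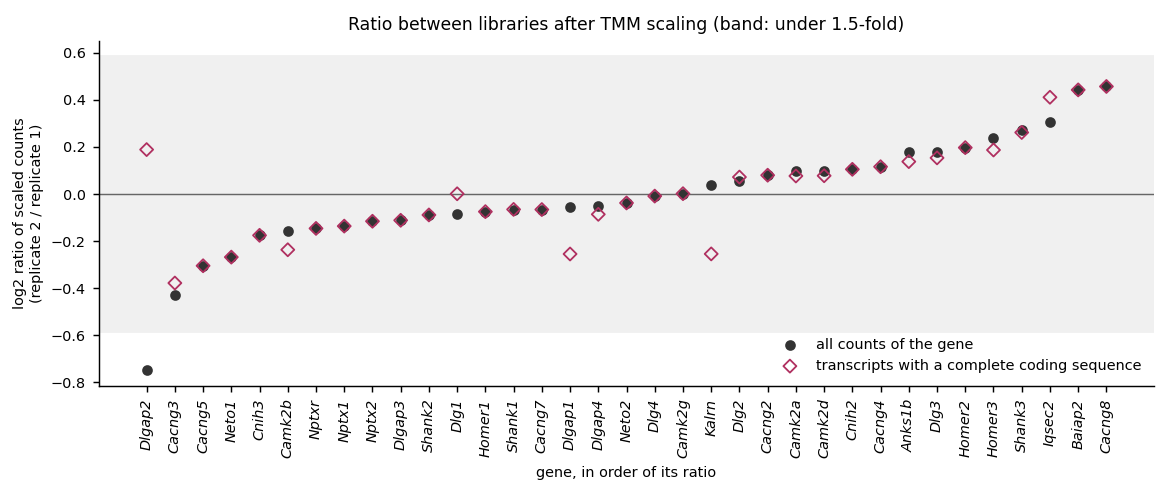
Log2 ratio of TMM-scaled counts, replicate 2 over replicate 1, for each gene over all its transcripts (filled circles) and over transcripts with a complete coding sequence (open diamonds), with the band of less than 1.5-fold shaded. Dlgap2 is the only filled circle outside the band at -0.75, and its open diamond lies at 0.19; under spike-in scaling all circles would lie 0.10 higher.

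The tables listed 266 transcripts for the 35 genes. Protein-coding transcripts with a complete coding sequence numbered 149 and held 85.9% of the genes' summed TPM in replicate 1 and 85.3% in replicate 2. Retained intron transcripts held 4.54% and 5.05%, and other non-coding (processed) transcripts 4.61% and 4.63%. Depletion of ribosomal RNA, unlike poly(A) selection, keeps unspliced RNA in a library. The share with a complete coding sequence was uneven among genes. Dlgap1 had 42.4% and 35.6% in such transcripts and Dlg2 had 42.9% and 42.3%. Dlgap2 had 22.9% in replicate 1 and 54.3% in replicate 2, the widest move of all, while Iqsec2 had 40.9% and 61.3%. Homer1, Homer2, Dlgap3, Camk2g and Nptxr were among the genes with 100% in both. Counted over complete coding transcripts, Cnih2, Nptxr and Dlg4 still led the order, and Dlgap2 took the last place from Camk2a at 1.43 and 1.07 TPM against 2.33 and 1.73 TPM.

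**Figure D5:**
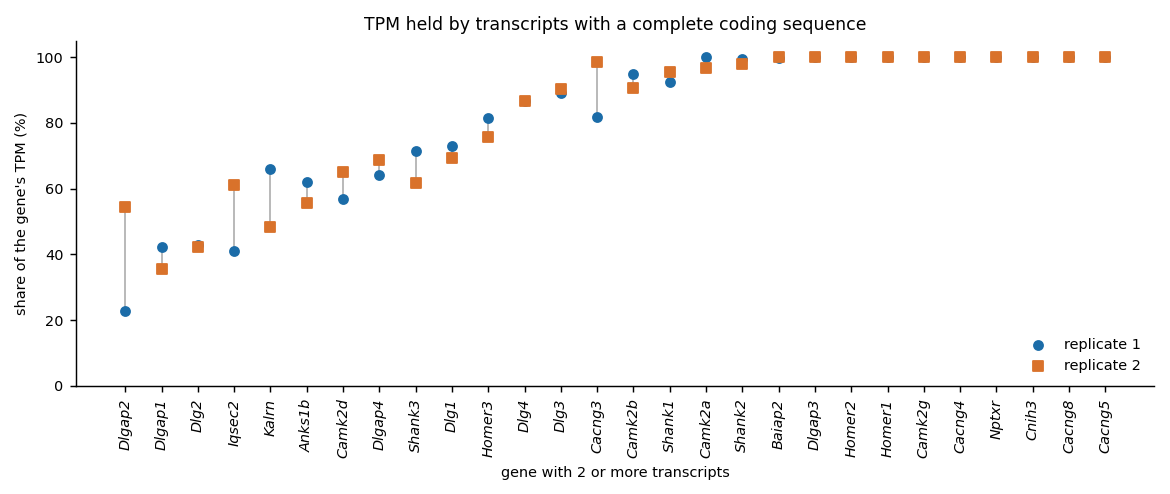
Share of each gene's TPM (%) held by transcripts with a complete coding sequence, in replicate 1 (circles) and replicate 2 (squares), for the 28 genes with 2 or more transcripts. Dlgap2 (22.9% and 54.3%), Dlgap1 (42.4% and 35.6%) and Dlg2 (42.9% and 42.3%) lie lowest.

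Of the 28 genes with 2 or more transcripts, 25 had the same leading transcript in both libraries, where 76.3% of 10924 such protein-coding genes did. A single transcript held 50% or more in both libraries in 15 of the 28, where 62.2% of protein-coding genes had one. The exceptions to a shared leader were Homer1, described above, Dlg1 and Iqsec2. Dlg1-201 led Dlg1 in replicate 1 at 24.9% and was at 7.47% in replicate 2, where Dlg1-204 led at 25.95% after 18.0% in replicate 1. Iqsec2-205, a processed transcript, led Iqsec2 at 38.8% in replicate 1 and held 38.7% in replicate 2, where the coding transcript Iqsec2-202 led at 52.7% after 31.3%. In Dlgap1, Dlgap2, Kalrn and Anks1b the leading transcript was non-coding in both libraries, as with Dlgap1-213, a retained intron form at 41.8% and 34.7%, and Kalrn-208, a processed transcript at 25.0% and 20.7%. Among the scaffold genes with a coding transcript at 50% or more in both libraries were Dlg4, Dlgap3 (Dlgap3-201, 88.8% and 90.9%), Shank1 (Shank1-203, 73.9% and 76.3%) and Homer2 (Homer2-201, 100% and 95.6%).

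The postsynaptic genes were set beside 3 lists of their partners. All 19 glutamate receptor subunit genes reached 1 TPM in both libraries, with a median of 10.6 TPM and a median log2 count ratio of 0.02. Grm5, a metabotropic receptor that binds Homer, led at 49.4 and 33.6 TPM, followed by the NMDA receptor subunit Grin1 at 40.9 and 29.8 TPM and the AMPA receptor subunit Gria2 at 36.45 and 25.2 TPM. Lowest were the kainate receptor subunit Grik4 at 4.14 and 3.48 TPM and the NMDA receptor subunit Grin2c, known from mature cerebellar granule cells, at 1.92 and 1.36 TPM. Cnih2 at 138.5 and 103.04 TPM thus exceeded every AMPA, NMDA and kainate subunit on the list in both libraries.

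Of 33 further genes of the postsynaptic density and of receptor auxiliaries, 31 reached 1 TPM in both libraries, with a median of 11.6 TPM and a median log2 count ratio of -0.04. Agap2 (65.6 and 43.7 TPM), the spinophilin gene Ppp1r9b (53.0 and 32.5 TPM) and Lin7c (47.7 and 28.1 TPM) led. The lowest were Cacng1, a subunit of the muscle calcium channel, at 0.30 and 0.17 TPM, and Cacng6, listed at 0 in both. The brain TARPs and these muscle relatives thus stood apart by more than the libraries did. All 7 genes of the inhibitory postsynapse reached 1 TPM, with a median of 16.0 TPM, a median log2 count ratio of 0.13, and with Nlgn2 (36.15 and 24.2 TPM) and Glrb (23.9 and 19.1 TPM) among the highest. Slitrk3 (7.17 and 5.84 TPM) was lowest. None of the genes on these 3 lists differed by 1.5-fold or more between libraries after TMM scaling.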

How the data were processed

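For each of the 2 libraries the authors deposited gene and transcript tables made on build mm10 with GENCODE M4, per the deposited file notes. Which aligner and quantifier made them is not given in the sources used here. The deposited expected counts are estimates that divide shared reads, the deposited TPM values are per length and sum to a fixed total, and the deposited percent values split the TPM of a gene among its transcripts. The deposited TPM intervals come with no stated level.

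GENCODE M21 (same build) gave symbols, coordinates, transcript types and exon structures; 42462 rows (98.0%) had a symbol, and 220 of the members' 266 transcripts had the same length in both releases. Exon inclusion was summed from transcript TPM, not from junction reads. Rows naming no mouse gene (1.28% and 1.09% of counts) were left out. Counts were rounded and scaled by TMM in edgeR 4.0.16 (R 4.3.3), with a prior count of 2 and a mean count of at least 10 for ratios. Alternatives were size factors from DESeq2 1.42.0, spike-in totals and the sum of mouse counts. Log2 levels and pair ratios used a pseudocount of 0.1 TPM. Ratios were tested on simulated counts. Named were all members by level, ratios of 1.5-fold or more and the 3 nearest 0, leading transcripts, and of other lists the 3 highest and 2 lowest genes. Some genes that this rule covers are not reported here. Members and lists were chosen with earlier results of these data known. Protein sequences were not analysed here.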

Additional observations from a re-analysis of the deposited data

How the results depend on the processing

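No paired analysis was possible because the series holds 1 group. The median log2 level of the members (3.60) was 3.70 with a pseudocount of 1 TPM, 5.72 with TPM rescaled to protein-coding genes, and 3.25 over transcripts with a complete coding sequence, an alternative chosen after seeing the data; leaving out each library in turn gave 3.50 to 3.62. Of the members, 1 passed 1.5-fold between libraries, 4 passed the lower limit of 0.32 log2 units, 0 passed 2-fold, and 0 passed 1.5-fold over complete coding transcripts. With a limit of 75% in place of 50%, a single transcript held that share of the gene's TPM in both libraries in 9 members. The share of all protein-coding genes at that limit is not given here. The Dlgap4/Dlgap3 log2 ratio of 0.16 reversed to -0.42 over complete coding transcripts. Of the 19 pairs 18 then lay beyond the spread, and the exception was Shank3/Shank2, at a log2 ratio of 0.29 in place of 0.86. Camk2d and Camk2g, a pair outside that set, also reversed their order over complete coding transcripts. The division of shared reads among transcripts adds error to transcript shares that counts do not show.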
